A study of Mus musculus with 95 samples.

Results

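The livers of mice given amiodarone were set directly against the livers of mice given valproic acid, both after 11 days at the highest dose used, on 10 of the 95 Affymetrix arrays in the series. The members are the 5 arrays labelled amiodarone 60 mg/kg body weight and the 5 labelled valproic acid 500 mg/kg, chosen by their titles, and all 16464 genes with a symbol were compared. Both groups were male C57BL/6 mice, 10 weeks old and 21 to 27 g, dosed by oral gavage, and the liver RNA came from the middle of the left lateral lobe. The doses differ between the compounds, so each difference below is one between these 2 treatments and not between equal amounts of drug. The 5 arrays of animals given the shared vehicle, phosphate-buffered saline (PBS), for 11 days serve as the baseline, and the high doses on days 1 and 4 (4 arrays per group) and the lower doses on day 11 (amiodarone at 20 and 6.7 mg/kg, valproic acid at 250 and 125 mg/kg, 5 arrays per group) are used where named.

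Amiodarone is an antiarrhythmic drug, a cationic amphiphilic molecule that gathers in lysosomes and is known to cause phospholipid storage and fatty liver. Valproic acid is an antiepileptic drug, a branched short fatty acid that is bound to coenzyme A and to carnitine in the liver, that inhibits histone deacetylases, and that is also known to cause fatty liver. Much of the liver's response to fatty acids runs through the nuclear receptor PPARA, which switches on fatty acid oxidation in peroxisomes, microsomes and mitochondria. The response to many drugs runs through the receptors CAR and PXR, which switch on cytochrome P450 and conjugating enzymes. The comparison asks which of these programmes the 2 steatosis-inducing compounds share and where they part.

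Levels are log2 expression values made by the authors with RMA (robust multi-array average), and differences are amiodarone minus valproic acid on the log2 scale ± SE from a linear model (limma), so that a positive value means a higher level with amiodarone. Group levels are means ± SD of 5 arrays unless another number is given. A gene is called where limma's p is under 0.05 after Benjamini-Hochberg adjustment across the 16464 genes. The medians of all 95 arrays lay between 3.079 and 3.148, and the correlations among the 10 arrays between 0.9884 and 0.9955. With 5 arrays a group, their number sets the precision. Whether the arrays of a group came from different mice is not stated, and the p-values reflect sample-to-sample spread alone. The tissue was whole liver, in which fewer cells of a type and less RNA per cell cannot be told apart.

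2 arrays stood apart from their groups. Amiodarone sample 012 had a mean level of 4.83 over 11 neutrophil markers, while the other amiodarone arrays lay between 2.86 and 2.97 and the valproic acid arrays between 2.86 and 3.26. Its S100a8 level, a calprotectin subunit of neutrophils, was 7.52, where the other amiodarone arrays lay between 2.54 and 3.62. Valproic acid sample 049 had Lcn2, the acute phase protein lipocalin 2, at 10.95 and Saa2, serum amyloid A2, at 9.84, each the highest of the 10 arrays. Counts of list members without one or both of these arrays are given where they moved by over 1.5 times, and for some other lists.

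On day 11 the compounds differed in 1327 of the 16464 genes (8.06%). Of these, 565 (3.43%) were higher with amiodarone and 762 (4.63%) were lower. Without amiodarone sample 012 the counts were 506 and 680, and without valproic acid sample 049 they were 450 and 597. In 373 of the genes called higher (2.27% of all genes) and 491 of those called lower (2.98%), every array of one compound lay beyond every array of the other. Called or not, 3.07% of all genes had every amiodarone array above, and 4.12% every amiodarone array below, every valproic acid array. Large differences were few, with 44 genes called over 2-fold higher (0.267%) and 29 over 2-fold lower (0.176%). Against PBS, amiodarone changed 1161 genes (7.05%), of which 698 were higher (4.24%) and 463 lower (2.81%). Valproic acid changed 1487 genes (9.03%), of which 970 were higher (5.89%) and 517 lower (3.14%). These 2 comparisons share the PBS arrays, so their values are given side by side only. When the values were quantile normalized again, the genes changed by valproic acid against PBS split into 750 higher and 710 lower, and those differing between the compounds into 646 and 631.

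**Figure D1:**
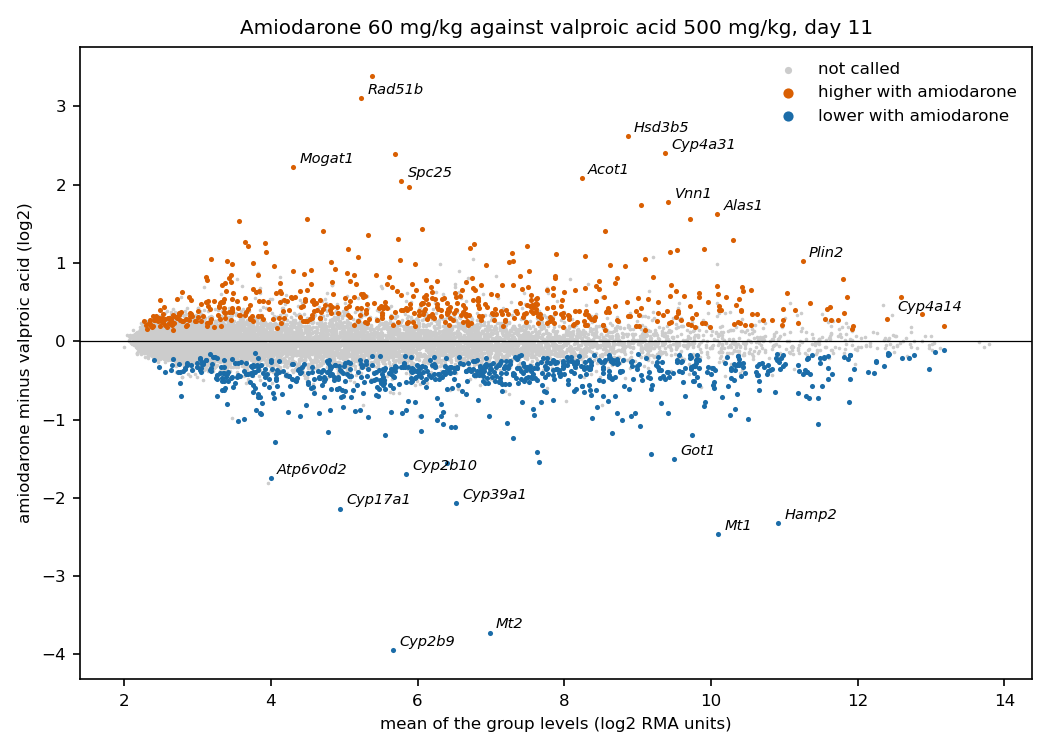
Difference between amiodarone and valproic acid on day 11 (log2, vertical) against the mean of both group levels (log2 RMA units, horizontal), 1 point per gene. Coloured points are the 565 genes called higher and the 762 called lower with amiodarone, and Cyp2b9 and Mt2 lie lowest at -3.95 and -3.72.

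PPARA targets of peroxisomal and microsomal fatty acid oxidation were higher with amiodarone. Of 26 measured genes of this list, 17 were called higher and 0 lower (65.4% against 8.06% of all genes), with a median difference of 0.66 against 0.0032 over all genes. The counts were the same without samples 012 and 049. Against PBS, amiodarone raised 23 of the 26 (median 1.31) and valproic acid raised 12 and lowered 1 (median 0.34). Of all genes, amiodarone raised 4.24% and lowered 2.81% against PBS, and valproic acid raised 5.89% and lowered 3.14%. The same shares stand beside the counts against PBS of the lists below. Some members of the list, such as Cyp4a32 and Cyp4a12b, were not analysed here.

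Cyp4a31, a member of the microsomal fatty acid hydroxylase family, had levels of 10.48, 10.87, 10.70, 10.56 and 10.28 on the amiodarone arrays and of 7.54, 7.53, 8.71, 8.18 and 8.88 on the valproic acid arrays. The groups did not overlap, and both lay above the PBS arrays, which ran from 5.28 to 6.05. The gene was 5.31-fold higher with amiodarone (2.41 ± 0.29, limma adjusted p = 1.1e-09). Acot1, a cytosolic acyl-CoA thioesterase that releases fatty acids from coenzyme A, had levels of 9.11, 9.54, 9.34, 9.16 and 9.24 with amiodarone and of 6.97, 6.58, 7.43, 7.25 and 7.75 with valproic acid. Here too valproic acid lay between PBS (5.12 to 5.83) and amiodarone, with a difference of 2.08 ± 0.31 (limma adjusted p = 4e-07). Its mitochondrial relative Acot2 differed by 1.44 ± 0.16. Vnn1, the pantetheinase that recycles pantothenic acid from coenzyme A breakdown, reached 10.11 to 10.48 with amiodarone and 8.16 to 8.82 with valproic acid (1.77 ± 0.28, limma adjusted p = 1.9e-06).

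Of the 26 members, 11 were called above PBS with amiodarone and not called against PBS with valproic acid, Pex11a and Pdk4 among them. The same count was not made over all genes. Of the 11, Abcd2, Angptl4, Crot and Decr2 were not called between the compounds. A missing call does not mean no change, and Abcd2 stood at 3.84 ± 0.64 with PBS and 4.75 ± 0.40 with valproic acid. Pex11a, which drives the division of peroxisomes, had levels of 10.44, 10.45, 10.34, 10.46 and 10.76 with amiodarone, 9.03, 8.76, 9.06, 8.99 and 8.80 with valproic acid, and 8.67 to 9.16 with PBS. Its difference between the compounds was 1.56 ± 0.16 (limma adjusted p = 3.1e-12), and its difference of valproic acid from PBS was -0.01 ± 0.16. Pdk4, the kinase that shuts pyruvate out of mitochondrial oxidation, lay at 4.04 to 4.56 with amiodarone and at 2.32 to 3.44 with valproic acid (1.53 ± 0.19), and its differences from PBS were 1.76 and 0.23 (adjusted p = 0.58). The valproic acid and PBS levels of Pdk4 lay around or below the array median, where these values do not show whether a signal is above background, so the size of its differences may be understated. Ehhadh, the bifunctional enzyme of peroxisomal oxidation, was raised by both compounds against PBS, by 2.84 with amiodarone and 2.04 with valproic acid, and differed between them by 0.80 ± 0.16.

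The best known Cyp4a targets did not separate the compounds in the same way. Cyp4a14 lay at 12.50, 12.73, 12.58, 12.64 and 12.69 with amiodarone and at 12.22, 12.16, 12.45, 12.32 and 12.33 with valproic acid, against 6.52 to 8.65 with PBS. Every amiodarone array lay above every valproic acid array, but the difference was small, 0.33 ± 0.75 (limma adjusted p = 0.88). The SE comes from the spread in all 21 groups, and in a fit of the arrays compared alone the same difference had a limma adjusted p of 0.016. Cyp4a10 differed by 0.46 ± 0.33 (adjusted p = 0.49, and 0.04 in that fit). With both compounds Cyp4a14 lay not far below the highest value on any array, 13.869, so the size of its difference may be understated. The Cyp4a genes are close relatives, as are Acot1 and Acot2, and cross-hybridisation between their probes cannot be told apart from their own signal here.

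Mitochondrial fatty acid oxidation and ketogenesis moved the same way by smaller amounts. Of 19 measured genes, 9 were called higher and 1 lower (median 0.20), beside 3.43% and 4.63% of all genes. Without samples 012 and 049 together the counts were 8 and 0. Against PBS amiodarone raised 15 and valproic acid 11, with 0 lowered by either. Decr1, the dienoyl-CoA reductase needed for unsaturated fatty acids, had levels of 8.94, 9.16, 9.01, 9.13 and 9.06 with amiodarone and of 8.34, 8.03, 8.31, 8.37 and 8.51 with valproic acid. The groups did not overlap, and the difference was 0.75 ± 0.10 (limma adjusted p = 9.5e-09). Eci1, an enoyl-CoA isomerase, and Slc25a20, the carrier that brings acylcarnitine into mitochondria, were higher by 0.66 ± 0.10 and 0.64 ± 0.09. The member called lower was Echs1, the short-chain enoyl-CoA hydratase, at -0.28 ± 0.07. Cpt1a, the entry step of the carnitine shuttle, differed by 0.13 ± 0.11 and was not called (adjusted p = 0.59).

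Of 26 measured genes of coenzyme A and carnitine metabolism, 9 were called higher and 1 lower (median 0.16), beside 3.43% and 4.63% of all genes. Without samples 012 and 049 together the counts were 6 and 0. Crat, the carnitine acetyltransferase, was higher by 0.97 ± 0.14 (limma adjusted p = 4e-07), with levels of 4.23 to 4.79 with amiodarone against 3.30 to 3.90 with valproic acid. Slc22a5, the carnitine importer of the cell membrane, was higher by 0.71 ± 0.14 and its groups did not overlap. Pank1, which makes the first committed step to coenzyme A, differed by 0.23 ± 0.07 (adjusted p = 0.028), a call lost when sample 031 or 039 of amiodarone, or 028 or 049 of valproic acid, was left out, and in the fit of the arrays compared alone.

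Genes of lipid droplets, triglyceride storage and fatty acid uptake were more often higher with amiodarone. Of 31 measured genes, 15 were called higher and 4 lower (61.3% called against 8.06% of all genes, median 0.20), and 13 and 4 without samples 012 and 049. Against PBS, amiodarone raised 15 and lowered 2, and valproic acid raised 4 and lowered 0. The members called lower were Mogat2, Dgat2 and Cideb, at -0.39 ± 0.10, -0.37 ± 0.08 and -0.28 ± 0.06, and the bile acid and fatty acid ligase Slc27a5 at -0.20 ± 0.05. Dgat2 makes the last step of triglyceride synthesis, and Cideb acts in lipid transfer to lipoproteins.

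Mogat1, a monoacylglycerol acyltransferase that makes diacylglycerol for triglyceride, had levels of 5.44, 6.05, 5.36, 5.07 and 5.17 with amiodarone and of 2.93, 2.98, 3.15, 3.56 and 3.34 with valproic acid. The valproic acid arrays lay close to the PBS arrays (2.38 to 2.93) and near the array median, where these values do not show whether a signal is above background. The groups did not overlap, and the fitted difference of 2.23 ± 0.14 (limma adjusted p = 1.5e-21) may understate the size. Plin2, which coats the lipid droplets of hepatocytes, had levels of 11.65, 11.64, 11.78, 11.79 and 11.96 with amiodarone and of 10.70, 10.41, 10.81, 11.01 and 10.78 with valproic acid. Every amiodarone array lay above every valproic acid and every PBS array (10.58 to 11.18), and the difference was 1.02 ± 0.13 (limma adjusted p = 1.9e-08).

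The promoters of Mogat1 and Plin2 are shown because both genes separated the compounds without overlap and both hold a pair of AGGTCA-like repeats, the element that PPARA binds with its partner RXR. The sequences are the 250 bases before the start from RefSeq (GRCm38.p6), at chr1:78510810-78511059 on the plus strand for Mogat1 and chr4:86670060-86670309 on the minus strand for Plin2, read along the gene, with the repeat pair in capitals. The search took AGGTCA repeats in the same direction, 1 base apart, on both strands, with up to 2 mismatches. Such a pair was found in 3.34% of the 13162 genes with a window, in 4.93% of the genes called higher and in 3.58% of those called lower. A match is a description of letters and not of a site in use.
Mogat1: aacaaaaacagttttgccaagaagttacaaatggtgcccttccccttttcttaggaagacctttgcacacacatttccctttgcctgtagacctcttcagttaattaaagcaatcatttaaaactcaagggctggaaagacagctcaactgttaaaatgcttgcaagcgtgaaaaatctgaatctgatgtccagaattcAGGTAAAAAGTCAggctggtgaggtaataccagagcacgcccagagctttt
Plin2: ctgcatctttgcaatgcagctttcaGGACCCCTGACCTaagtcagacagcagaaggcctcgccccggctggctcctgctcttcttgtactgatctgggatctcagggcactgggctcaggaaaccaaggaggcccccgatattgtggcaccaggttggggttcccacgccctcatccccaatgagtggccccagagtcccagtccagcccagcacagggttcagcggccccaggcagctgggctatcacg

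G0s2, which inhibits the main triglyceride lipase, lay at 9.92, 9.59, 10.21, 9.87 and 9.96 with amiodarone and at 7.52, 8.21, 8.29, 8.51 and 8.35 with valproic acid. The groups did not overlap, and the difference was 1.74 ± 0.44 (limma adjusted p = 0.0046). Fitm1, which helps droplets bud from the endoplasmic reticulum, was higher by 1.19 ± 0.22, and Mgll, the monoacylglycerol lipase, by 1.09 ± 0.13. Cd36, a fatty acid transporter, was raised by both compounds against PBS (2.66 ± 0.22 with amiodarone, 1.94 ± 0.22 with valproic acid) and differed between them by 0.72 ± 0.22 (adjusted p = 0.029). The Cd36 call was lost without amiodarone sample 012 or 031 or valproic acid sample 028, 049 or 078. That of the droplet protein Cidec (0.33 ± 0.11, adjusted p = 0.048) was lost in 12 of 16 other settings.

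In de novo fatty acid synthesis, 3 of 19 measured genes were called higher and 0 lower, beside 3.43% and 4.63% of all genes. Me1, the malic enzyme that supplies NADPH, had levels of 9.87 to 10.26 with amiodarone against 8.62 to 9.45 with valproic acid (1.16 ± 0.19, limma adjusted p = 6.6e-06). Elovl3, a very long chain elongase, and Fads2, the delta-6 desaturase, were higher by 1.14 ± 0.36 and 0.43 ± 0.11, and the call of Elovl3 was lost without sample 031, 033 or 039 of amiodarone or 006 of valproic acid. Fasn, the fatty acid synthase, and Scd1, the stearoyl-CoA desaturase, were not called, at 0.38 ± 0.28 (adjusted p = 0.51) and 0.25 ± 0.17 (adjusted p = 0.45). Of 16 genes of cholesterol synthesis and uptake, 1 was called higher and 2 lower (0 and 1 without samples 012 and 049, singly or together), and Sqle, the squalene epoxidase, differed by 0.04 ± 0.24.

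**Figure D2:**
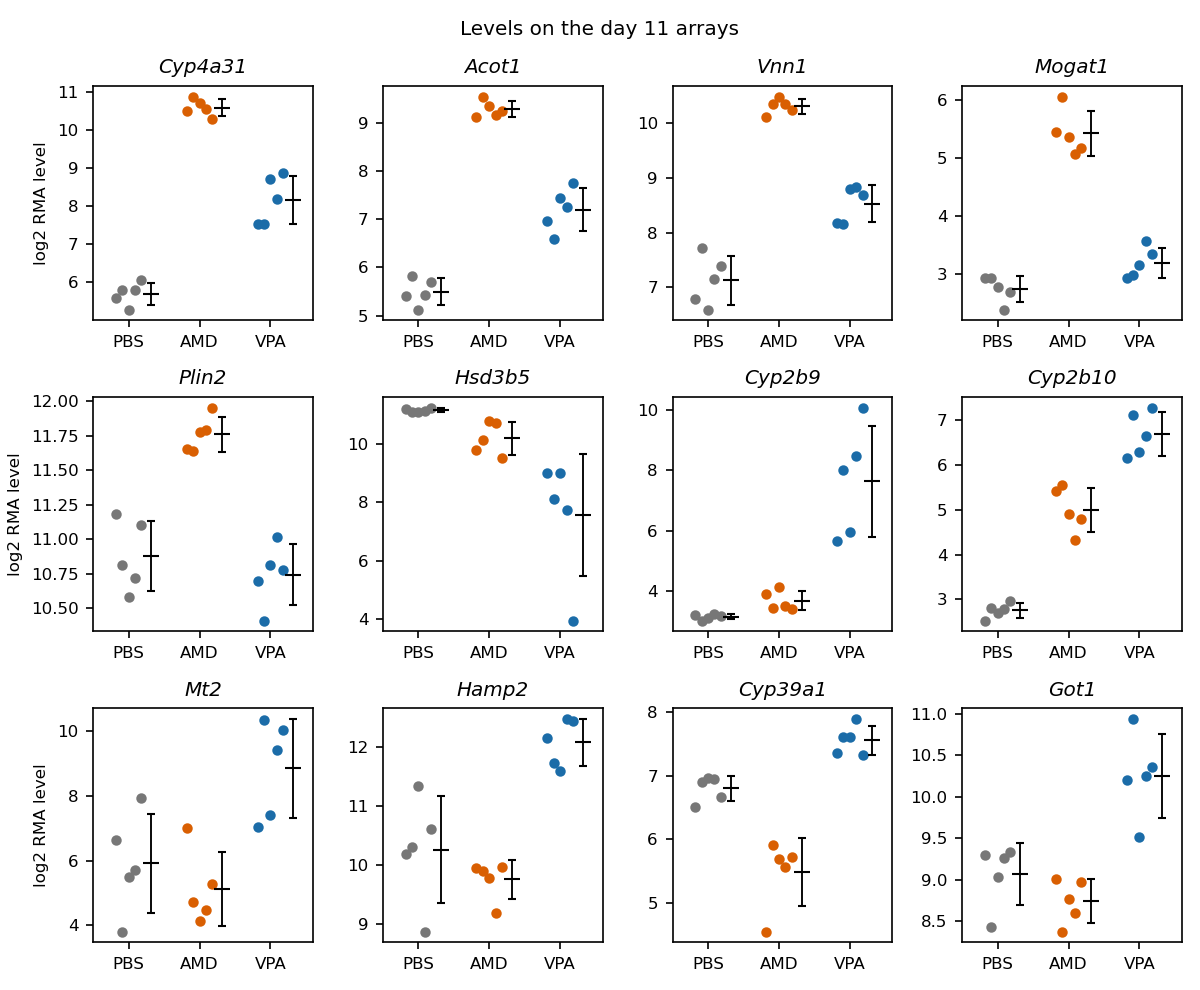
Levels of 12 genes (log2 RMA, 1 point per array) on the day 11 arrays with PBS (grey), amiodarone (orange) and valproic acid (blue), with the mean and SD beside each group of 5. The amiodarone and valproic acid arrays do not overlap for any of the 12 genes, and valproic acid arrays spread from 5.65 to 10.07 for Cyp2b9. All except Plin2 were picked from called genes without overlap, so its absence in them follows from the choice. Of all genes, 3.07% had every amiodarone array above, and 4.12% every amiodarone array below, every valproic acid array.

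CAR and PXR targets split between the compounds. Of 30 measured genes, 8 were called higher with amiodarone and 11 lower (63.3% called against 8.06% of all genes, median -0.03). Against PBS, amiodarone raised 13 and lowered 1, and valproic acid raised 18 and lowered 0. Those lower with amiodarone included Cyp2b9, Cyp2b10 and 5 members of the Cyp2c family, and those higher included Alas1, Cyp2c55 and Cyp3a11.

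Cyp2b10, the classical CAR target, had levels of 5.41, 5.55, 4.89, 4.32 and 4.79 with amiodarone and of 6.15, 7.11, 6.29, 6.64 and 7.27 with valproic acid, against 2.53 to 2.97 with PBS. All treated arrays lay above all PBS arrays, and valproic acid lay above amiodarone by 3.24-fold (-1.70 ± 0.33, limma adjusted p = 0.00015). Cyp2b9, a close relative whose expression is biased to females in mouse liver, had levels of 3.92, 3.45, 4.13, 3.52 and 3.42 with amiodarone and of 5.65, 8.02, 5.95, 8.49 and 10.07 with valproic acid. It was 15.4-fold lower with amiodarone (-3.95 ± 0.54, limma adjusted p = 7.9e-08), and its difference from PBS was 0.53 ± 0.54 with amiodarone and 4.48 ± 0.54 with valproic acid. The probes of the Cyp2b genes may read each other's transcripts in part.

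The promoters of Cyp2b9 and Cyp2b10 are shown because these neighbouring relatives differed in their response, with Cyp2b10 called above PBS with both compounds and Cyp2b9 with valproic acid. The sequences are the 250 bases before the start from RefSeq (GRCm38.p6), at chr7:26173159-26173408 on the plus strand for Cyp2b9 and chr7:25897408-25897657 on the plus strand for Cyp2b10. In a global alignment, 186 of the 250 bases (74.4%) were identical, and capitals mark the bases with no match in the other gene.
Cyp2b9: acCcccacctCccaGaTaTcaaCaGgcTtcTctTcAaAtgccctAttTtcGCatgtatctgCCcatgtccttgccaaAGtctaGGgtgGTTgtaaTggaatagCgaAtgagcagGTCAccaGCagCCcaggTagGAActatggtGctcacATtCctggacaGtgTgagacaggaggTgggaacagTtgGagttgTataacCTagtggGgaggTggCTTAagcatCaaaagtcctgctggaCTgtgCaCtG
Cyp2b10: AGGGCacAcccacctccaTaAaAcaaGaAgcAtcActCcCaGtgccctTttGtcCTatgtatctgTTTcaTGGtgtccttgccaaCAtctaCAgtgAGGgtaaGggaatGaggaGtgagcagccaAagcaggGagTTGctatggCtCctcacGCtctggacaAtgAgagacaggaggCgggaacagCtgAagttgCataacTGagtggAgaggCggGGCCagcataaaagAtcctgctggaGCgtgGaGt

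Alas1, the first enzyme of haem synthesis, lay at 10.20, 11.10, 11.18, 11.18 and 10.83 with amiodarone and at 10.33, 9.20, 8.57, 8.96 and 9.32 with valproic acid. Sample 012 of amiodarone and sample 028 of valproic acid overlapped, and the difference was 1.62 ± 0.45 (limma adjusted p = 0.01). Cyp3a11, the main PXR target and the gene with one of the highest levels, lay at 13.25 to 13.30 with amiodarone and 13.02 to 13.15 with valproic acid, a difference of 0.20 ± 0.04 (adjusted p = 0.0011). Cyp2c55 was higher by 0.90 ± 0.22, while Cyp2c38 and Cyp2c37 were lower, at -0.95 ± 0.24 and -0.94 ± 0.12.

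Of 29 measured phase II conjugating enzymes, 4 were called higher and 10 lower (beside 3.43% and 4.63% of all genes), and 4 and 7 without samples 012 and 049. The 4 higher ones were all glucuronosyltransferases of the Ugt2b family, led by Ugt2b38 (2.39 ± 0.64, adjusted p = 0.0078), whose close paralogs may share probes. Nnmt, which methylates nicotinamide, was lower, at -1.44 ± 0.23 (limma adjusted p = 3.9e-06), with levels of 8.11 to 9.10 against 9.14 to 10.58. Gstt3, a glutathione transferase, was lower, at -1.18 ± 0.25, although amiodarone raised it against PBS (1.04 ± 0.25) as did valproic acid (2.22 ± 0.25). Of 27 NRF2 antioxidant genes, 7 were called higher and 1 lower (6 and 0 without samples 012 and 049), beside the same shares of all genes. Those higher were led by Gstm4 (0.66 ± 0.13) and the sulfiredoxin gene Srxn1 (0.60 ± 0.11). Nqo1, the usual NRF2 readout, was raised by both compounds against PBS (1.01 ± 0.23 and 1.03 ± 0.23) and differed by -0.02 ± 0.23 between them.

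Genes that differ between the sexes in mouse liver were called more often than all genes. Of 27 male-biased genes, 6 were called higher with amiodarone and 1 lower (25.9% called against 8.06% of all genes, median 0.24). Of those higher, Cyp4a12a, Elovl3 and Ugt2b38 are also counted in the PPARA, fatty acid synthesis and phase II lists. Against PBS, valproic acid lowered 16 of the 27 and raised 0 (median -0.63), and amiodarone lowered 9 and raised 0 (median -0.33). Of 22 female-biased genes, 2 were called higher and 6 lower (36.4% called), and 8 of the 22 lay below the array median. Against PBS, valproic acid raised 9 and amiodarone 5, with 0 lowered by either. Of all genes, valproic acid raised 5.89% and lowered 3.14% against PBS, and amiodarone raised 4.24% and lowered 2.81%.

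Hsd3b5, a male-specific ketosteroid reductase, had levels of 9.76, 10.11, 10.78, 10.69 and 9.52 with amiodarone and of 9.01, 8.12, 8.98, 7.71 and 3.95 with valproic acid, against 11.08 to 11.23 with PBS. Sample 006 of valproic acid was the lowest by far, and the same array had the highest Cyp2b9 level. The Hsd3b5 difference was 2.62 ± 0.59 (limma adjusted p = 0.0012) and 1.72 without that array (adjusted p = 0.037). In a fit of the arrays compared alone its limma adjusted p was 0.059. C6, a component of the complement attack complex, lay at 9.06 to 9.37 with amiodarone and 7.17 to 8.21 with valproic acid (1.41 ± 0.21, limma adjusted p = 4.6e-07). Cyp17a1, a steroid hydroxylase and lyase, was lower, at -2.14 ± 0.46, with levels of 3.62 to 4.56 with amiodarone and of 5.71, 7.00, 3.86, 6.27 and 7.22 with valproic acid. Sample 078 of valproic acid overlapped the amiodarone arrays.

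The metallothioneins, small proteins that bind zinc and copper and are induced by metals, glucocorticoids and inflammation, were among the genes with the largest differences, at lower levels with amiodarone. Mt2 had levels of 7.00, 4.72, 4.15, 4.48 and 5.27 with amiodarone and of 7.03, 10.35, 7.40, 9.41 and 10.04 with valproic acid. The highest amiodarone array was sample 012, just under the lowest valproic acid array, and the difference was -3.72 ± 0.79 (limma adjusted p = 0.00051). Mt1 had levels of 9.93, 8.67, 8.60, 8.52 and 8.58 with amiodarone and of 10.38, 11.97, 11.24, 11.33 and 11.72 with valproic acid, a difference of -2.47 ± 0.53 (limma adjusted p = 0.00062). PBS arrays ran from 3.80 to 7.92 for Mt2 and from 7.11 to 10.78 for Mt1, so the amiodarone levels lay inside the PBS range. Against PBS, valproic acid raised Mt2 by 2.93 ± 0.79 and Mt1 by 1.99 ± 0.53. Without samples 012 and 049 in turn, the Mt2 difference was -4.19 and -3.35. Mt1 and Mt2 are close relatives whose probes may read each other in part.

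The promoters of Mt1 and Mt2 are shown because both genes separated the compounds in the same direction. The 250 bases before the start from RefSeq (GRCm38.p6) lie at chr8:94178839-94179088 on the plus strand for Mt1 and chr8:94172368-94172617 on the plus strand for Mt2. Capitals mark TGCNCNC on either strand, a pattern looser than the core of the metal response element, as it takes any base at each N. This motif was searched after the metallothionein values were seen. It was found 1 time in the Mt1 window and 5 times in the Mt2 window, and in 54.9% of all genes with a window, so its presence is common. Both counts hold for these windows only, which depend on the RefSeq start used. Bases outside them were not searched, so the counts do not give the number of elements per promoter.
Mt1: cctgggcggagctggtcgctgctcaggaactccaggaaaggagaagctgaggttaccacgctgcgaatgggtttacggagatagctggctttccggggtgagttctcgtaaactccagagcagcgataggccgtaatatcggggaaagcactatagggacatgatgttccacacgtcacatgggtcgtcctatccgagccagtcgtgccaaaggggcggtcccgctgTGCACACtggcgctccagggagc
Mt2: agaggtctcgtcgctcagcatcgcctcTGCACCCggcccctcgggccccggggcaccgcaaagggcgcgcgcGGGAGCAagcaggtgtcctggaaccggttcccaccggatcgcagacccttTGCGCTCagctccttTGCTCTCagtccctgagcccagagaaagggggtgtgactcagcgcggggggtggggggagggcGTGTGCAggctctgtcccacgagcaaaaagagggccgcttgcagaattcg

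Of 17 glucocorticoid-responsive genes, 6 were called lower with amiodarone (beside 4.63% of all genes) and 0 higher (median -0.49), the same counts without samples 012 and 049. Beside the metallothioneins they included Tsc22d3, which encodes the glucocorticoid-induced leucine zipper, with levels of 5.54 to 6.11 against 6.44 to 7.34 (-1.01 ± 0.21, limma adjusted p = 0.00035), and Sgk1, a glucocorticoid-induced kinase (-0.76 ± 0.21). Hamp2, a hepcidin paralog, had levels of 9.95, 9.90, 9.77, 9.18 and 9.97 with amiodarone and of 12.17, 11.74, 11.59, 12.48 and 12.44 with valproic acid. The groups did not overlap, and the difference was -2.33 ± 0.41 (limma adjusted p = 1.9e-05). Hamp, the iron-regulating hormone hepcidin itself, was lower, at -0.78 ± 0.20 (adjusted p = 0.0072), a call lost without amiodarone sample 031 (adjusted p = 0.061), and the 2 probe sets may cross-react.

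Of 31 acute phase and inflammation genes, 7 were called lower (beside 4.63% of all genes) and 0 higher. Among the 7 were Mt1 and Mt2, also counted in the glucocorticoid list, and Fga and Fgb, also counted as hepatocyte markers. The count called lower was 9 without sample 012, and 5 without sample 049 or without both. Lcn2 had levels of 7.45, 3.43, 3.42, 3.42 and 5.12 with amiodarone and of 5.25, 10.95, 3.61, 5.56 and 7.53 with valproic acid. The groups overlapped and the difference of -2.01 ± 0.96 was not called (adjusted p = 0.23), and ranged from -2.75 to -0.92 over the other settings, the latter without valproic acid sample 049. Saa2 differed by -0.42 ± 0.87, and by 0.58 without valproic acid sample 049. Serpina3n, an acute phase protease inhibitor, was lower, at -0.64 ± 0.20 (adjusted p = 0.026), a call lost in the fit of the arrays compared alone, with sample number blocks, and without amiodarone sample 031, 033, 039 or 062 or valproic acid sample 049.

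Amino acid catabolism was the list with the largest share of called members. Of 27 measured genes of the urea cycle and amino acid catabolism, 21 were called lower with amiodarone and 0 higher (77.8% against 8.06% of all genes, median -0.37). Without samples 012 and 049 together 18 were called lower. Against PBS, valproic acid raised 13 and lowered 0, and amiodarone raised 1 and lowered 7. Of all genes, valproic acid raised 5.89% and lowered 3.14% against PBS, and amiodarone raised 4.24% and lowered 2.81%. Some members of the list, such as Cps1 and Ass1, were not analysed here.

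Got1, the cytosolic aspartate aminotransferase, had levels of 9.01, 8.37, 8.76, 8.60 and 8.97 with amiodarone and of 10.20, 10.94, 9.52, 10.24 and 10.36 with valproic acid, against 8.43 to 9.34 with PBS. The groups did not overlap and the amiodarone arrays lay near PBS, with a difference of -1.51 ± 0.24 (limma adjusted p = 2.4e-06). Prodh, the proline dehydrogenase, was lower, at -1.08 ± 0.16, with 8.34 to 8.61 against 9.36 to 9.70. Etnppl, a phosphoethanolamine lyase of periportal hepatocytes, was lower, at -1.01 ± 0.18, with 8.06 to 8.56 against 9.13 to 9.41. Hal, the histidine lyase, and Asl, the argininosuccinate lyase of the urea cycle, were lower, at -0.87 ± 0.11 and -0.77 ± 0.12. Of 17 genes of glucose metabolism and insulin response, 4 were called lower (beside 4.63% of all genes) and 0 higher. Those called lower included the glucose-6-phosphate transporter Slc37a4 (-0.78 ± 0.11) and the coactivator Ppargc1a (-0.55 ± 0.16). The Ppargc1a call was lost without amiodarone sample 033 or valproic acid sample 049.

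Of 26 genes of bile acid synthesis and transport, 4 were called higher and 8 lower, beside 3.43% and 4.63% of all genes. Cyp39a1, which hydroxylates 24-hydroxycholesterol on the way to bile acids, had levels of 4.55, 5.91, 5.69, 5.57 and 5.72 with amiodarone and of 7.37, 7.60, 7.60, 7.90 and 7.32 with valproic acid. The PBS arrays (6.51 to 6.96) lay between the groups, which did not overlap, and the difference was -2.07 ± 0.19 (limma adjusted p = 1.9e-13). Slc22a7, an organic anion transporter, was lower, at -1.56 ± 0.35, and the uptake transporter Slco1a4 at -0.91 ± 0.25. Cyp7a1, the rate-limiting enzyme of bile acid synthesis, differed by -0.76 ± 0.42 and was not called (adjusted p = 0.32).

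Of 22 lipoprotein genes, 3 were called higher and 8 lower, beside 3.43% and 4.63% of all genes. Apoa4, an apolipoprotein that follows the liver's triglyceride traffic, lay at 7.15, 6.63, 6.68, 6.85 and 7.26 with amiodarone and at 7.84, 8.34, 7.88, 8.52 and 9.08 with valproic acid. Amiodarone lay below valproic acid and below PBS (7.83 to 8.58), with a difference of -1.42 ± 0.25 (limma adjusted p = 2.6e-05). Tm6sf2, which takes part in the lipidation of secreted lipoproteins, was lower, at -1.05 ± 0.15. Mttp, the transfer protein that loads them with triglyceride, was higher by 0.32 ± 0.07 (adjusted p = 0.0005). Of the secreted liver factors, 5 of 21 were called lower (beside 4.63% of all genes), among them Enho (-0.92 ± 0.23) and Lect2 (-0.92 ± 0.10). Fgf21 was not called (0.38 ± 0.27).

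Of 30 lysosome and phospholipid storage genes, 9 were called lower with amiodarone and 0 higher, the same counts without samples 012 and 049. Of all genes 4.63% were called lower. Against PBS, amiodarone raised 4 and lowered 5 (median -0.04), and valproic acid raised 8 and lowered 1 (median 0.11). Atp6v0d2, a subunit of the lysosomal proton pump, had levels of 3.30, 3.12, 3.20, 2.92 and 3.08 with amiodarone and of 4.94, 4.91, 4.22, 4.77 and 5.50 with valproic acid. Amiodarone lay at the PBS level (2.90 to 3.45), close to the array median, and the groups did not overlap (-1.74 ± 0.20, limma adjusted p = 5.7e-10). Ctsb, the protease cathepsin B, was lower, at -0.49 ± 0.07, and amiodarone lowered it against PBS (-0.31 ± 0.07) while valproic acid differed from PBS by 0.18 ± 0.07 (adjusted p = 0.13). Gpnmb, a lysosomal stress marker of macrophages, lay at 2.80 to 3.19 and 2.77 to 3.29 and differed by 0.06 ± 0.11.

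Of 27 cell cycle genes, 8 were called higher and 1 lower, beside 3.43% and 4.63% of all genes. The counts were 6 and 1 without samples 012 and 049 together, and 7 and 0 without sample 049. Ccnd1, the cyclin that drives entry into the cycle, had levels of 7.80, 7.79, 7.14, 6.97 and 7.21 with amiodarone and of 6.39, 5.60, 6.37, 5.56 and 6.80 with valproic acid. It was higher by 1.24 ± 0.22 (limma adjusted p = 3.1e-05), and valproic acid lowered it against PBS (-1.35 ± 0.22). The mitotic kinase Cdk1 (0.82 ± 0.19) and the replication helicase subunit Mcm6 (0.75 ± 0.19) lay near the array median, and the Mcm6 call was lost without amiodarone sample 031 and in the fit of the arrays compared alone. 14 of the 27 genes lay below the array median. Of the remaining lists, ATF4 targets had 3 of 28 called lower and endoplasmic reticulum chaperones 2 of 22, with 0 higher in either. Of all genes 4.63% were called lower and 8.06% in either direction, and without valproic acid sample 049 the counts of these lists were 2 and 1. Interferon response (26 genes) and AHR targets (9 genes) had 0 called by limma, beside 8.06% of all genes, and with so few genes this says little. Of the 9 AHR targets, 4 lay below the array median. Before adjustment 3130 of all genes had a limma p under 0.05, a count not made for these lists. Atf4 itself and its target Trib3 were not called, at 0.01 ± 0.10 and -0.35 ± 0.27, and Trib3 was raised against PBS by both compounds (1.16 ± 0.27 and 1.51 ± 0.27). Of 29 histone acetylation and methylation enzymes, 1 was called lower and 0 higher.

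**Figure D3:**
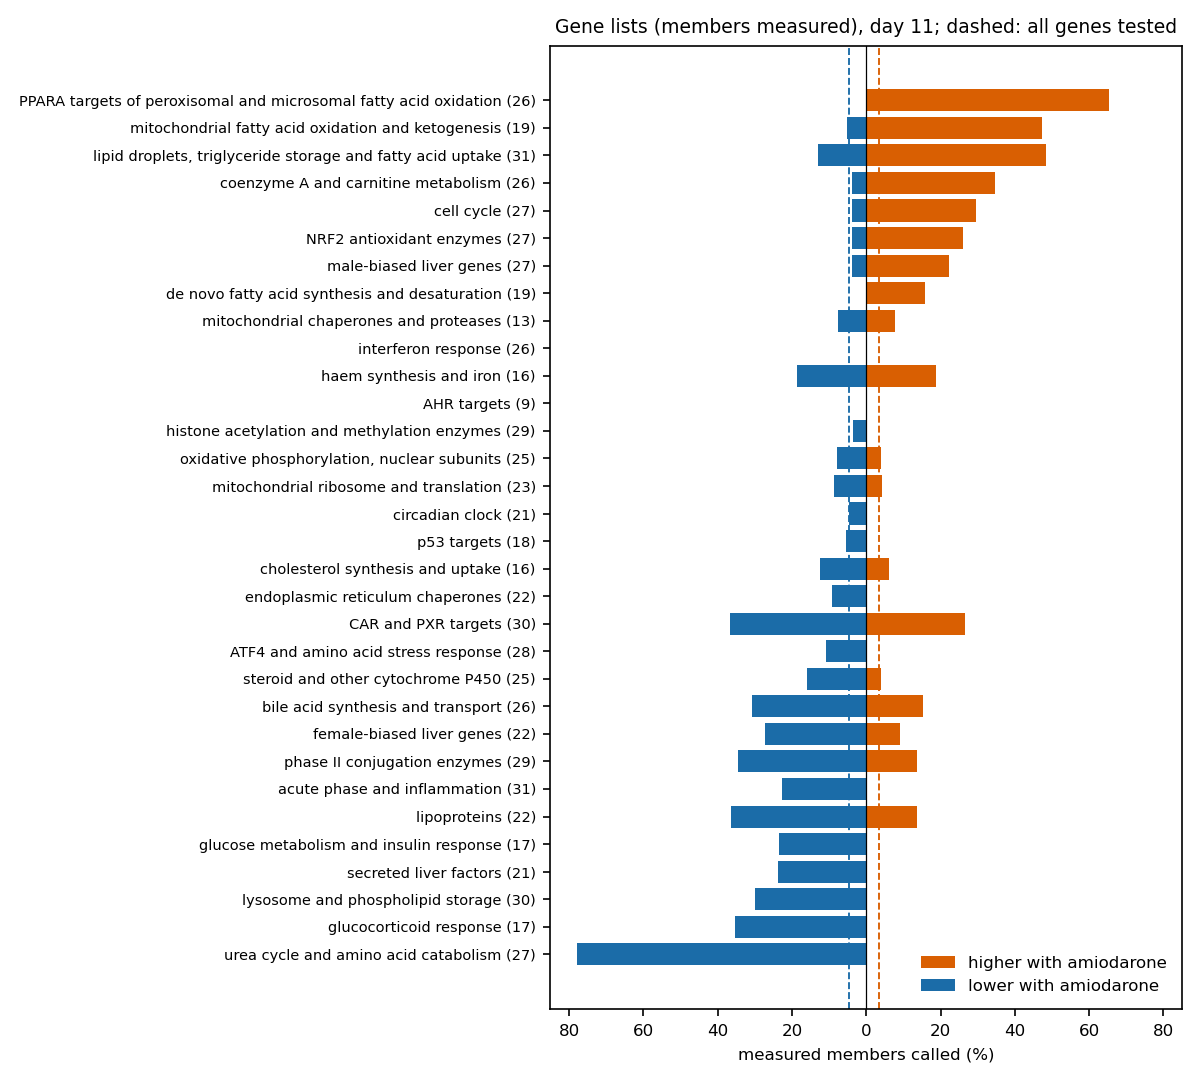
Share of the measured members of each functional list (number in brackets) called higher (orange, to the right) or lower (blue, to the left) with amiodarone than with valproic acid on day 11. Dashed lines mark the shares over all genes tested, 3.43% and 4.63%, and the PPARA targets and the amino acid list lie farthest out.

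Several genes with large differences belong to none of these groups. Rad51b, which acts in DNA repair by recombination, had levels of 6.94, 7.12, 6.48, 6.38 and 7.01 with amiodarone and of 3.33, 3.05, 4.26, 3.77 and 3.97 with valproic acid, against 2.37 to 2.67 with PBS. Both compounds were called above PBS, and the difference between them was 3.11 ± 0.24 (limma adjusted p = 5.6e-17). Spc25, a subunit of the kinetochore's NDC80 complex, lay at 6.45 to 7.18 with amiodarone and at 4.50 to 5.07 with valproic acid (2.05 ± 0.23). Cib3, a calcium-binding protein, was higher by 1.97 ± 0.34, and the Golgi GTPase gene Rab30 by 1.36 ± 0.29. Bhlhb9 was higher by 1.56 ± 0.23. Among genes lower with amiodarone, the nuclear long non-coding RNA Neat1, the scaffold of paraspeckles, lay at 6.51 to 7.13 against 7.67 to 9.46 (-1.54 ± 0.34). Wfdc2, Rdh16f2 of the retinol dehydrogenase family and the cystine transporter subunit Slc3a1 were lower, at -1.29 ± 0.25, -1.20 ± 0.12 and -1.23 ± 0.25.

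The direct differences between the compounds were also measured on days 1 and 4, on other arrays. They reached 2671 genes on day 1 (16.2%), with 1364 higher (8.28%) and 1307 lower (7.94%), and 1407 on day 4 (8.55%), with 800 higher (4.86%) and 607 lower (3.69%). Of the 565 genes higher on day 11, 251 were also called higher on day 4 and 2 lower, and 201 were called higher on day 1 and 27 lower. Of the 762 genes lower on day 11, 219 were called lower on day 4 and 7 higher, while on day 1 158 were called lower and 142 higher. Of the genes higher on day 11, 89% had the same sign on day 4 and 72% on day 1, called or not. Of those lower on day 11, 77.8% had the same sign on day 4 and 50.9% on day 1. Over all genes the shares were 57.1% on day 4 and 52% on day 1.

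The difference itself changed from day 1 to day 11 in 1931 genes (11.7%), upwards in 849 (5.16%) and downwards in 1082 (6.57%). From day 4 to day 11 it changed in 147 genes (0.893%), upwards in 39 (0.237%) and downwards in 108 (0.656%). This last total ranged from 54 to 231 when single arrays were left out, the lowest without valproic acid day 4 sample 068. Cyp2b10 was higher with amiodarone on day 1 (2.19 ± 0.37) and lower on day 11 (-1.70 ± 0.33), a change of -3.88. Hamp2 went from 2.54 ± 0.46 to -2.33 ± 0.41 and Etnppl from 1.87 ± 0.20 to -1.01 ± 0.18. Cyp2b9 did not separate the compounds on day 1 (0.40 ± 0.61) or day 4 (0.48 ± 0.61), and its difference changed by -4.43 from day 4 to day 11. Osgin1, an oxidative stress growth inhibitor, was lower with amiodarone on day 4 (-0.84 ± 0.28) and higher on day 11 (1.22 ± 0.25).

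Acute phase genes separated the compounds most on day 1. Of the 31 genes of the list, 28 were called lower with amiodarone on day 1 and 26 on day 4, against 7 on day 11. Of all genes, 7.94%, 3.69% and 4.63% were called lower on days 1, 4 and 11. Lcn2 differed by -7.51 ± 1.07 on day 1, by -4.99 ± 1.07 on day 4 and by -2.01 ± 0.96 on day 11, the last -0.92 without valproic acid sample 049. The metallothionein Mt2 was lower with amiodarone on each day, at -6.43 ± 0.88, -4.64 ± 0.88 and -3.72 ± 0.79. PPARA targets were higher on each day, with 19, 18 and 17 of 26 called on days 1, 4 and 11 and 0 lower. The shares of all genes called higher on those days were 8.28%, 4.86% and 3.43%. Day 1 levels with valproic acid lay below day 1 PBS (4 arrays) for some members and above it for others. Acot1 stood at 4.08 with valproic acid and 5.24 with PBS, and Acaa1b at 10.78 and 11.89. Acaa1a went the other way, at 6.36 and 6.02, as did Acot8. On day 11 Acaa1b stood at 12.31 with valproic acid and 11.97 with PBS. The day 1 differences from PBS were not tested. Mogat1 differed by 0.41 ± 0.16 on day 1 (adjusted p = 0.071) and by 2.25 ± 0.16 on day 4, and Rad51b by -0.02 ± 0.27 and 2.35 ± 0.27.

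**Figure D4:**
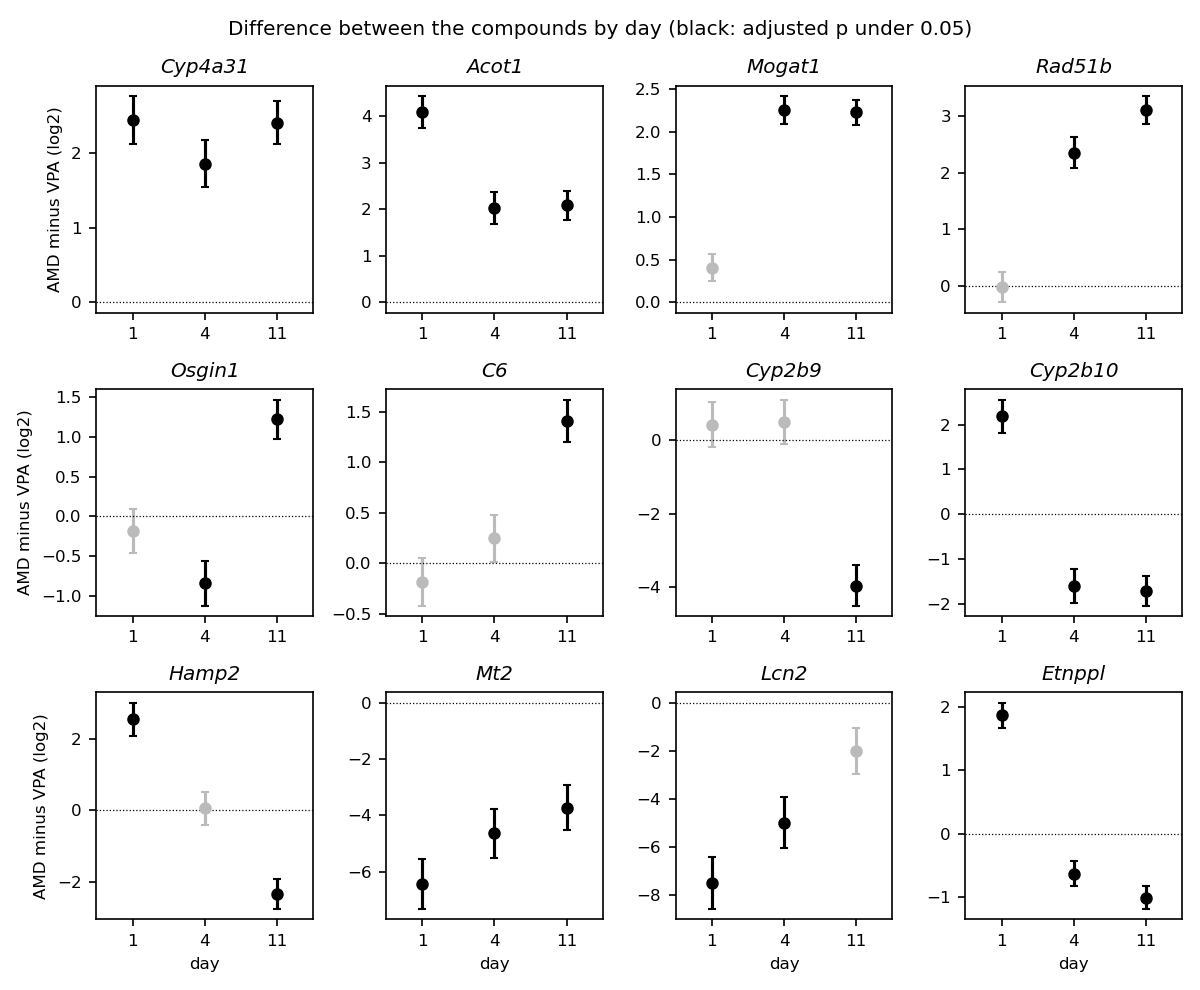
Difference between amiodarone and valproic acid (log2 ± SE, vertical) for 12 genes on days 1, 4 and 11 (horizontal), with called differences in black and others in grey. Cyp2b10, Hamp2 and Etnppl cross 0 between day 1 and day 11, while Cyp4a31 and Mt2 keep their side.

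The lower doses on day 11 differ between the compounds as the high doses do, so their levels are given side by side with no comparison. Cyp4a14 stood at 6.46 ± 1.04, 8.66 ± 2.27 and 12.63 ± 0.09 at 6.7, 20 and 60 mg/kg of amiodarone, and at 10.49 ± 0.58, 12.06 ± 0.22 and 12.30 ± 0.11 at 125, 250 and 500 mg/kg of valproic acid, against 7.41 ± 0.90 with PBS. Mogat1 stood at 2.95 ± 0.28, 2.95 ± 0.09 and 5.42 ± 0.38 over the amiodarone doses and at 2.94 ± 0.10, 3.16 ± 0.22 and 3.19 ± 0.26 over the valproic acid doses. Its high level was seen at the highest amiodarone dose. Cyp2b9 stood at 3.13 ± 0.19, 7.33 ± 2.30 and 7.64 ± 1.85 over the valproic acid doses, and Hsd3b5 at 10.91 ± 0.43, 8.39 ± 3.03 and 7.55 ± 2.09. At 250 mg/kg the arrays of both genes had SDs above those at 500 mg/kg.

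**Figure D5:**
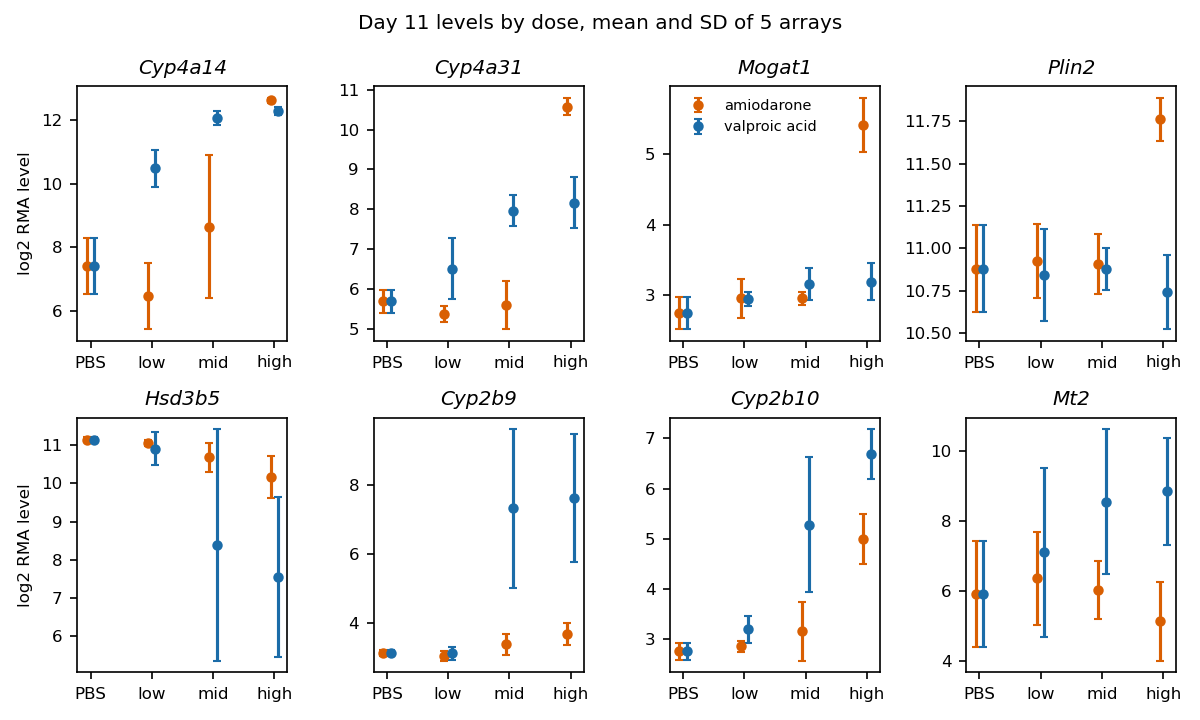
Levels of 8 genes (log2 RMA, mean and SD of 5 arrays) on day 11 with PBS and at the low, mid and high dose of amiodarone (orange; 6.7, 20 and 60 mg/kg) and of valproic acid (blue; 125, 250 and 500 mg/kg). Mogat1, Plin2 and Cyp4a31 are high at 60 mg/kg of amiodarone, and Cyp4a14 is near its top level from 250 mg/kg of valproic acid.

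Markers of cell types were compared in the same way. The 11 hepatocyte markers had mean levels of 12.34 to 12.37 per array with amiodarone and 12.37 to 12.53 with valproic acid, and 0 of them lay below the array median. Of them 5 were called lower with amiodarone, as were 7 of 12 periportal and 5 of 18 pericentral hepatocyte genes, with 0 called higher. Of all genes, 3.43% were called higher and 4.63% lower. Without valproic acid sample 049, 3 hepatocyte and 5 periportal markers were called lower. The periportal mean lay at 8.93 to 9.16 against 9.33 to 9.51, and this list shares 4 measured genes with the amino acid list. Stellate cell and endothelial markers had 5 of 15 and 4 of 15 called lower (3 and 4 without valproic acid sample 049), with means of 4.78 to 5.00 against 4.97 to 5.11 and of 4.78 to 4.92 against 4.95 to 5.15. Macrophage, neutrophil, lymphocyte, erythrocyte, pancreas and adipose markers had 0 called, beside 8.06% of all genes. However, 1 adipose marker was called higher without amiodarone sample 012 and 1 lymphocyte marker without both arrays. Below the array median lay 2 of 16 macrophage, 7 of 11 neutrophil and 12 of 16 lymphocyte markers. So did 2 of 3 erythrocyte, 6 of 8 pancreas and 4 of 8 adipose markers. With lists this small and many signals this low, 0 called says little about these cell types. In cholangiocytes 1 marker was called in each direction (0 higher without valproic acid sample 049), while Tff3, also of that list, was not called (0.72 ± 0.42). Of the 10 cholangiocyte markers, 8 lay below the array median. The part of these cell types in the results was not tested.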

How the data were processed

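Gene expression in liver was measured on Affymetrix arrays after biotin labelling with a 3' IVT Express kit, per the labels' protocols. The authors deposited log2 values made with RMA, per the submitters' processing notes, and its version and the probe annotation are not given in the sources used here. Of 17306 probe sets, 16464 with 1 gene symbol were tested (842 had none), and all 16464 matched RefSeq (GRCm38.p6) by Entrez Gene ID, which gave names and promoter sequences only. No pair of arrays was identical.

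All 95 arrays entered one limma 3.58.1 model (R 4.3.3) with 21 group means, which leaves 74 residual degrees of freedom, and p-values were adjusted by Benjamini and Hochberg over all genes. The fit was tested on simulated data. Figures used matplotlib 3.10.9 in Python 3.11.15, and promoters were aligned with Biopython 1.88.

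Named genes were the 15 largest called differences each way without overlap (predicted genes, pseudogenes and clone names passed over), up to 3 called members per list, the 3 largest changes of the difference between days each way, and a set followed whatever its values, of which a selection is described. S100a8, Ehhadh, Echs1, Mgll, Hal, Asl, Sgk1, Cyp2c55, Cyp2c37, Cyp2c38, Mogat2, Dgat2, Cideb, Slc27a5, Acaa1a, Acaa1b and Acot8 were named after their values were seen. The comparison, the 32 functional and 12 cell type lists and the tests were chosen with earlier results of these data known. Lists are described by counts and medians with no test. The alternatives were array weights, only the arrays compared, dim genes left out, quantile normalization again, median centring, blocks of 24 sample numbers, a robust variance trend, a 2-fold threshold and leaving out arrays in turn. List counts without samples 012 and 049 were added after seeing the data.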

Additional observations from a re-analysis of the deposited data

Results flagged for a closer look

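Among 83 genes described, 1 array lay far from the other 4 of its group in 18 of 166 groups of 5 arrays by Dixon's criterion, where chance alone gives about 1 in 20 such groups. Valproic acid sample 006 stood apart for Hsd3b5 at 3.95, Gstm4 at 8.19 and Scd1 at 11.91. Amiodarone sample 062 stood apart for Pex11a at 10.76. Valproic acid sample 049 stood apart for Rab30 at 3.97, Slc3a1 at 8.90, Eci1 at 9.98, Tm6sf2 at 8.15, Serpina3n at 9.29, Saa2 at 9.84 and Cpt1a at 8.94. Amiodarone sample 012 stood apart for Mt1 at 9.93, Cyp39a1 at 4.55, Wfdc2 at 2.93, Cyp17a1 at 4.56, Serpina3n at 8.25 and Tff3 at 6.82. Amiodarone sample 039 stood apart for Hamp2 at 9.18.

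The difference between the compounds itself changed between days in other genes, tested as a change of the log2 difference in limma with an adjusted p under 0.05. From day 4 to day 11 the change was 1.16 for C6 and 2.06 for Osgin1. In the other direction it was -4.43 for Cyp2b9, -2.39 for Hamp2, -1.21 for Atp6v0d2, -1.16 for Fads2, -3.03 for Cyp17a1, -1.41 for Gstt3, -2.31 for Rgs16 and -1.41 for Sqle. From day 1 to day 11 the positive changes were 3.13 for Rad51b, 1.82 for Mogat1, 1.37 for Pdk4, 1.60 for C6, 0.70 for Srxn1, 2.42 for Serpina3n, 1.41 for Osgin1, 6.40 for Saa2, 5.50 for Lcn2 and 1.43 for Sqle. The negative changes over the same days were -2.0045 for Acot1, -4.35 for Cyp2b9, -4.87 for Hamp2, -2.04 for Cyp39a1, -1.71 for Atp6v0d2, -3.88 for Cyp2b10, -1.82 for Got1, -1.39 for Rdh16f2, -0.91 for Me1, -3.24 for Slco1a4, -1.14 for Slc37a4, -0.67 for Ppargc1a, -1.39 for Prodh, -2.87 for Etnppl, -0.67 for Gstm4, -0.40 for Ctsb, -1.16 for Hamp, -2.61 for Gstt3, -0.81 for Lect2, -4.48 for Rgs16, -0.29 for Cyp3a11, -1.27 for Scd1, -1.88 for Cyp7a1, -1.06 for Nqo1 and -0.43 for Pank1. The causes of these changes were not tested.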

How the results depend on the processing

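The count of genes differing between the compounds on day 11 lay between 1127 and 1647 under 7 other settings, and between 1047 and 1261 when each of the 10 arrays was left out in turn, the lowest without valproic acid sample 049. Counting only differences over 2-fold left 73 genes in that comparison, 84 for amiodarone against PBS, 88 for valproic acid against PBS, 126 between the compounds on day 4 and 322 on day 1. The 147 changes of the difference from day 4 to day 11 became 357 with array weights and 264 with dim genes left out, and ranged from 54 to 231 over 18 left-out arrays. The count moved by more than 1.5 times without samples 012 or 039 of amiodarone and 078, 081 or 006 of valproic acid on day 11 (91, 79, 231, 69 and 81), without samples 017, 053 or 069 of amiodarone on day 4 (76, 73 and 90), and without samples 008 or 068 of valproic acid on day 4 (82 and 54). Quantile normalizing again split these changes into 48 and 55 in place of 39 and 108.

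Of 16 uncalled genes described, 12 kept their sign in every setting run and 4 did not. Nqo1 was 0.0213 with array weights, 0.0043 after quantile normalization, and -0.1388 to 0.1552 with arrays left out, turning in 5. Atf4 was -0.0316 with blocks of sample numbers and -0.0558 to 0.0775 with arrays left out, turning in 3. Sqle ranged from -0.0516 to 0.1942, turning in 4, and Saa2 from -1.0089 to 0.578, turning without valproic acid sample 049. Their causes were not tested. Of the 83 genes described, 67 kept direction and call in every setting run (16 or 17 per gene). Cyp4a10, Cyp4a14 and Fgf21 were called only in the fit of the arrays compared alone (adjusted p = 0.04, 0.016 and 0.035). No paired analysis was possible because sample numbers are unique to each array. The number of arrays and signals near the array median limit what can be measured.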
